A study of Mus musculus with 12 samples.

Results

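The metabotropic glutamate receptors examined here are the 7 genes named Grm2 to Grm8 in the gene models deposited with the NAc RNA-seq data. They were taken by gene name, and they hold 22 of the 87740 transcript models and 7 of the 35406 loci of the file. The RNA came from nucleus accumbens (NAc) of C57BL/6 mice, with an age of 8 to 10 weeks read from a label headed passages, pooled from 3 to 5 animals per sample, with 3 pools in each of 4 groups. Mice of the repeated cocaine group received cocaine at 20 mg/kg intraperitoneally for 7 days, against 7 days of saline in their controls. Mice of the acute cocaine group received saline for 6 days and cocaine at 20 mg/kg for 1 day, against 7 days of saline in controls of their own. The deposited file is 1 set of gene models for the series. It carries exon positions and identifiers and no expression value of any pool, so the receptors could be described by structure but not compared between cocaine and saline, and the tissue could not be checked against marker genes. All 22 models are marked as matching a transcript of the reference, so a model here is not evidence that the transcript was made in NAc.

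Metabotropic glutamate receptors are G protein-coupled receptors that sense glutamate through a large extracellular domain, cross the membrane with a helical bundle and end in an intracellular C-terminal tail. Group I, here Grm5 alone, couples to Gq and phospholipase C and sits mostly at the postsynaptic side, where its long tail binds Homer scaffolds. Group II (Grm2 and Grm3) and group III (Grm4, Grm6, Grm7 and Grm8) couple to Gi and Go, lower cyclic AMP and mostly act as brakes on transmitter release, except Grm6, which serves ON bipolar cells of the retina. In striatum and NAc, group II receptors on glutamatergic terminals and postsynaptic Grm5 are widely studied in relation to cocaine. Splicing of the last coding exons exchanges the tails of several receptors and with them the binding sites for partner proteins.

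The tails that the models end in are shown first, since the alternative forms differ there. Of each last exon only the coding part with its stop codon is printed. The sequences were read from the mm9 genome at the exon positions of the deposited models, 5′ to 3′ on the coding strand, and the capitals mark the stop codon.
Grm2 tail (chr9:106547349-106547422, minus strand): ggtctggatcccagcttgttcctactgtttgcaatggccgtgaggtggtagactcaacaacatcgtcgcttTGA
Grm3 tail (chr5:9485768-9485841, minus strand): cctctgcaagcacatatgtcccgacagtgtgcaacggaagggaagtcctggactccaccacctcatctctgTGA
Grm4 tail, long form (chr17:27563729-27563778, minus strand): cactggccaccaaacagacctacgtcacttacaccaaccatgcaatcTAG
Grm7 tail (chr6:111516012-111516061, plus strand): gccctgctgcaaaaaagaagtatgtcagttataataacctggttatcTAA
Grm8 tail, spliced form (chr6:27225645-27225694, minus strand): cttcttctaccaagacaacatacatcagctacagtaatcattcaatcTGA
Grm8 extension, extended form (chr6:27235685-27235734, minus strand): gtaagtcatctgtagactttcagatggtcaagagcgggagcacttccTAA
Grm4 tail, short form (chr17:27559670-27559726, minus strand): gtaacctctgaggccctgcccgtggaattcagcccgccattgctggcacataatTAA
The long form of Grm4, the model of Grm7 and the spliced form of Grm8 each end in an exon with 47 coding bases and a stop codon. Position by position, the Grm4 tail was identical to the Grm7 tail at 30 of 50 bases and to the spliced Grm8 tail at 30 of 50 bases, and those of Grm7 and Grm8 were identical at 27 of 50. The extended Grm8 tail also has 47 coding bases and a stop codon, but it was identical to the spliced one at only 15 of 50 bases and to the Grm4 and Grm7 tails at 14 of 50 bases each. The group II tails, of 71 coding bases and a stop codon in both receptors, were identical at 46 of 74 bases.

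Of the 22 models, 16 carry a protein identifier and were counted as coding. The other 6 have the protein_coding label in the deposited file too, but GENCODE M1, an annotation on the same genome build, lists 5 of them as processed transcripts and 1, of Grm4, as a retained intron. Group III held 15 models of 4 genes, 10 of them coding, group II held 3 models of 2 genes, all coding, and Grm5 held 4, of which 3 were coding. Grm4 and Grm8 had 5 models each, Grm5 and Grm6 had 4 each, Grm3 had 2, and Grm2 and Grm7 had 1 each. The number of deposited models did not follow the size of the gene, since Grm7, the longest of the receptors, had the same single model as Grm2, the shortest. This count depends on the annotation used, as GENCODE M1 lists further transcripts of Grm7 but not of Grm2.

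**Figure D1:**
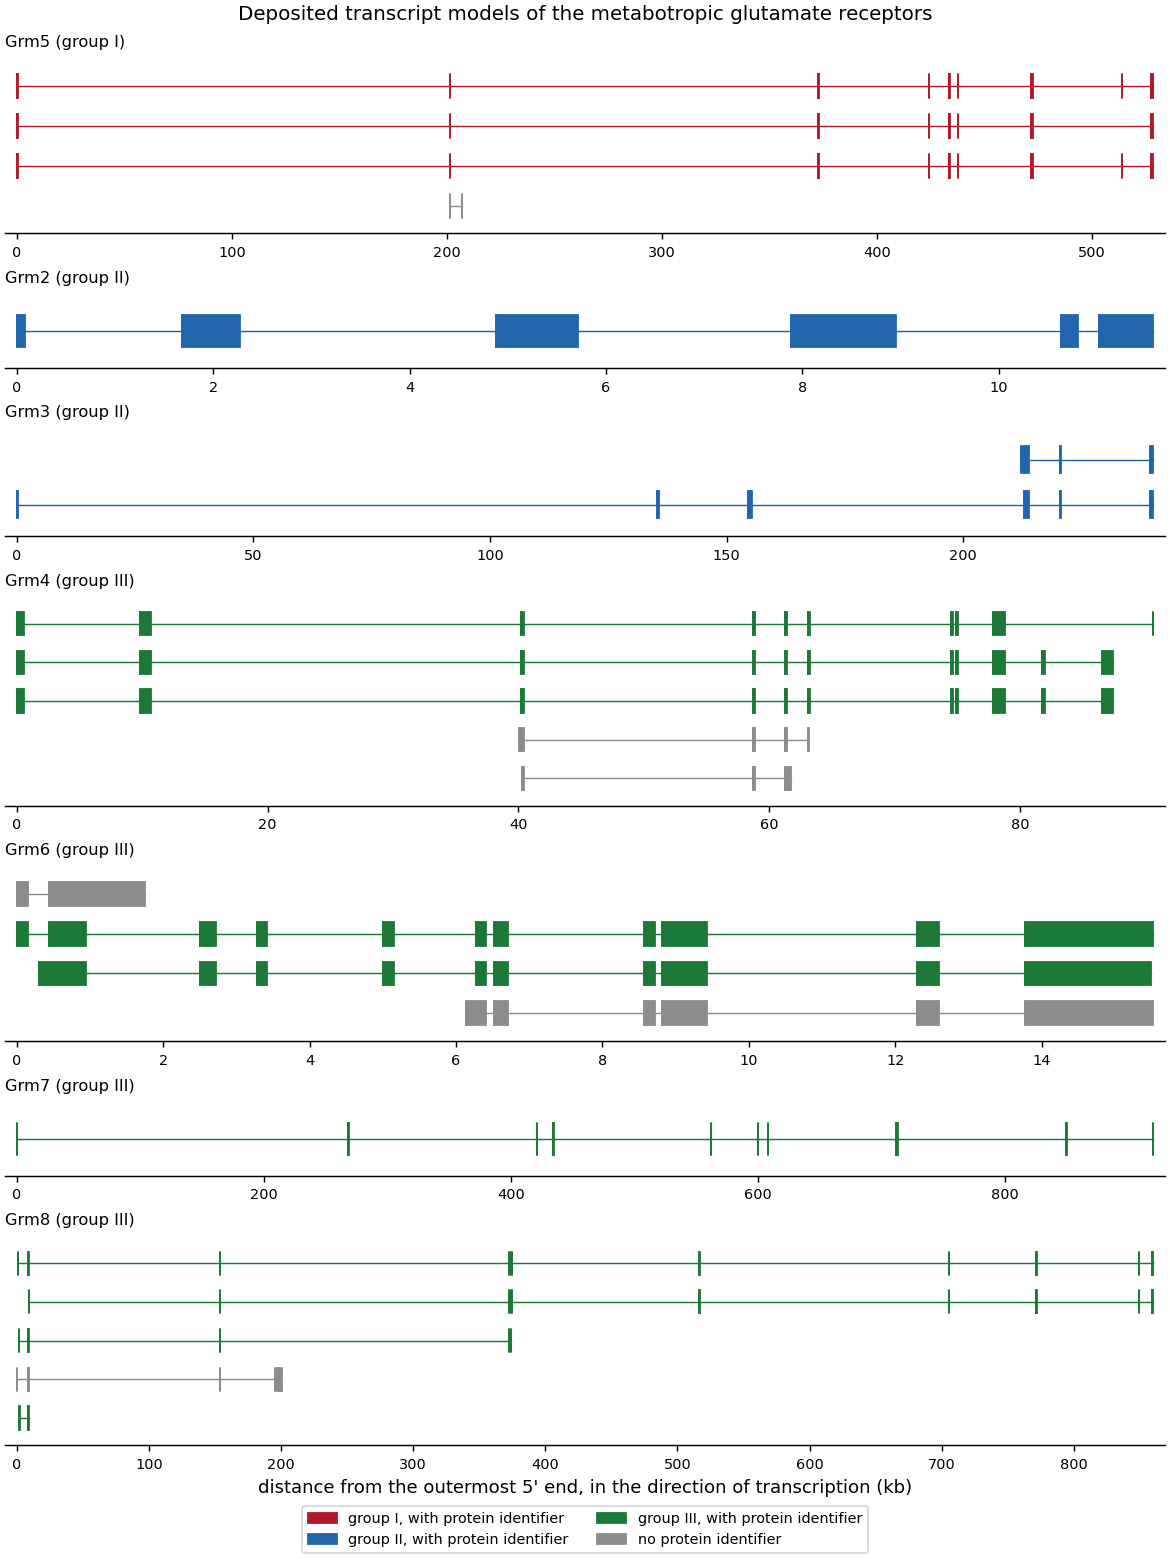
Exons (boxes) and introns (lines) of the 22 deposited models, 1 row per model, plotted by distance in kb from the outermost 5′ end of each gene, with a separate scale for each gene. Coloured models carry a protein identifier and grey ones do not, and the scale runs to 11.6 kb in Grm2 and to 920.2 kb in Grm7.

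The spans of the receptors on the genome differed by up to 59.3 times within a group, while the coding lengths hardly differed. In group I, Grm5 on chromosome 7 (mm9, 94750952 to 95279404, plus strand) covered 528 kb. In group II, Grm2 on chromosome 9 (106546868 to 106558440, minus strand) covered 11.6 kb and Grm3 on chromosome 5 (9485236 to 9725352, minus strand) 240.1 kb, which is 20.7 times as much for a coding sequence 1.01 times as long. In group III, Grm6 on chromosome 11 (50664187 to 50679710, plus strand) covered 15.5 kb and Grm4 on chromosome 17 (27559670 to 27650286, minus strand) 90.6 kb. The other group III genes are both on chromosome 6, on opposite strands and 82.5 Mb apart, with 860.1 kb for Grm8 (27225121 to 28085178, minus strand) and 920.2 kb for Grm7 (110595862 to 111516061, plus strand). Grm7 and Grm6 have a span ratio of 59.3 and a coding length ratio of 1.05.

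Over all 22206 loci with a coding transcript the median span was 15.2 kb. Grm7 was longer than 99.7% of these loci, Grm8 than 99.7%, Grm5 than 99.2% and Grm3 than 96.7%. Grm4 was longer than 88.0%, Grm6 than 50.6% and Grm2 than 43.6%, so the set runs from below the middle of the genome to its upper end. Only 59 coding loci had a longer span than Grm7 and 71 a longer span than Grm8. The group medians were 528 kb for group I (1 gene), 126 kb for group II and 475 kb for group III, and group III held both the largest and, after Grm2, the smallest of the genes.

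**Figure D2:**
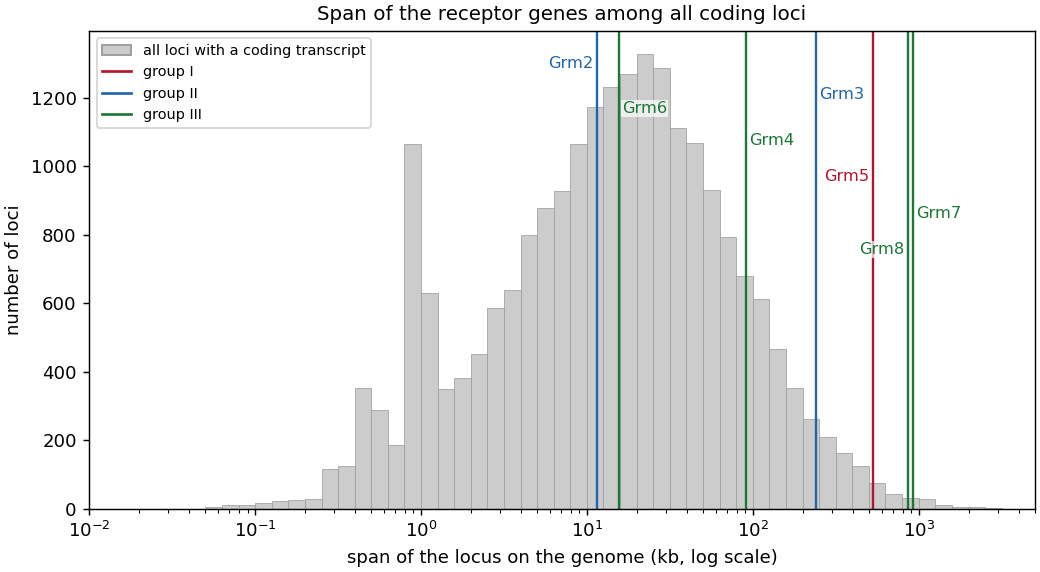
Number of coding loci (grey bars) by span in kb on a log axis, with a vertical line for each receptor in the colour of its group. Grm2 at 11.6 kb and Grm6 at 15.5 kb lie near the median of 15.2 kb, and Grm5, Grm7 and Grm8 lie above 500 kb.

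The difference in span was carried by introns. For each receptor the model with the longest complete coding sequence was used. Exons made up 28.7% of the span in Grm2 and 27.9% in Grm6, against 5.19% in Grm4 and 1.47% in Grm3. The share was 0.684% in Grm5, 0.448% in Grm8 and 0.299% in Grm7. In the Grm7 model, 5 of 9 introns were over 100 kb, and the first, of 267.9 kb, was the longest intron of these models. In the Grm8 model 4 of 10 introns and in the Grm5 model 2 of 8 were over 100 kb. Grm3 had 1 such intron, its first, of 134.9 kb, which lies before the start codon. The longest intron of Grm2 was 2.61 kb and that of Grm6 2.86 kb.

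The receptors of a group shared the layout of their coding exons, and those of different groups hardly did. Proteins were translated from the same models and aligned in pairs, and an intron was called shared when it fell at the same aligned residue and in the same phase, the phase being the position within a codon at which the intron cuts. In the 7 pairs within a group 67.6% to 73.7% of aligned residues were identical, and 4 to 9 coding introns were shared. In the 14 pairs between groups 43.0% to 48.0% of residues were identical, and 0 or 1 introns were shared (0 to 2 when a shift of up to 5 residues was allowed). Grm2 and Grm3 shared all 4 of their coding introns. Grm4 and Grm7 shared all 9, and Grm4 and Grm8 shared 8, which is every coding intron of the Grm8 model used, that of the extended form.

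In group III the first 7 coding exons followed a common pattern. The second had 217 bases, the fourth 155 and the sixth 201 in all 4 receptors. The first had 519 bases in Grm4 and Grm7, 510 in Grm8 and 486 in Grm6, the third 142 in Grm7 and 136 in the others, and the fifth 138 in Grm8 and 141 in the others. The seventh had 137 bases in Grm4 and Grm8, 140 in Grm7 and 146 in Grm6. These lengths differ by whole codons only, and the phases of the introns after them were the same in all 4 receptors.

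The eighth coding exon of Grm4, Grm7 and Grm8 has 936 bases, enough for 312 residues, and holds 6 to 8 of the 7 to 11 hydrophobic stretches of each protein. The stretches are only a rough measure of likely membrane passes, since this exon held 6 in Grm4 but 8 in Grm7 and in Grm8. In place of this exon Grm6 has 2 exons of 624 and 312 bases, which sum to the same 936 bases. Between them lies an intron of 2.86 kb that the other receptors lack. This intron was the longest in the Grm6 model. In Grm5 the corresponding exon has 940 bases and held 7 of 7 hydrophobic stretches. In group II the corresponding exon has 1076 bases in Grm2, with 7 of 9 stretches, and 1067 in Grm3, with 6 of 8.

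Matched introns of group III did not all rank the receptors alike. Of the 8 coding introns found in all 4 receptors, 5 were longest in Grm7 and 3 in Grm8, while 5 were shortest in Grm6, 2 in Grm8 and 1 in Grm4. The first had 267.9 kb in Grm7, 144.2 kb in Grm8, 29.5 kb in Grm4 and 1.56 kb in Grm6. The fourth had 127.3 kb in Grm7 but 0.894 kb in Grm8, 1.64 kb in Grm4 and 1.12 kb in Grm6. The sixth went the other way, with 188.9 kb in Grm8, against 7.62 kb in Grm7, 1.86 kb in Grm6 and 0.229 kb in Grm4. Other introns were long in both, such as the second, with 152.2 kb in Grm7 and 218.7 kb in Grm8, the seventh, with 104.0 kb in Grm7 and 65.4 kb in Grm8, and the eighth, with 136.6 kb in Grm7 and 77.1 kb in Grm8. Over the 4 receptors the longest to shortest ratio at a matched place ran from 13.4 to 1387 times.

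**Figure D3:**
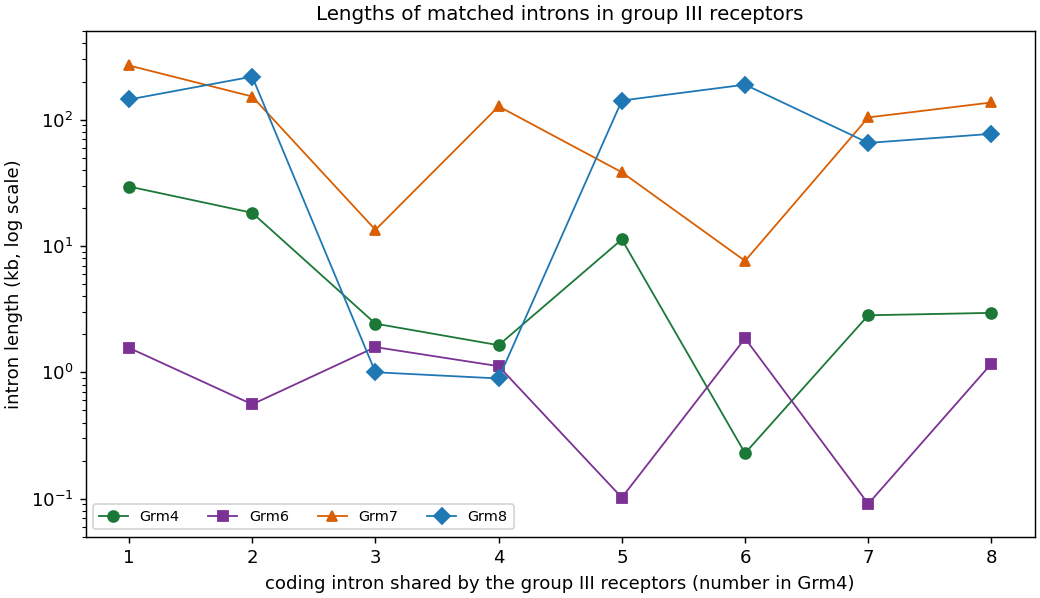
Length in kb, on a log axis, of the 8 coding introns that Grm4, Grm6, Grm7 and Grm8 share, numbered as in Grm4. Each point is 1 intron of 1 gene, with lines only to guide the eye. Grm7 and Grm8 change places between introns 4 and 6, with 127.3 and 0.894 kb at intron 4.

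By distinct last introns among coding models the receptors had 13 C-terminal variants: 1 each in Grm2, Grm3, Grm6 and Grm7, 2 in Grm4, 3 in Grm5 and 4 in Grm8. Of the 4 in Grm8, 2 belong to models without a stop codon that end at residue 293 and residue 20. In Grm5, 1 belongs to a model whose last intron begins with AG in place of the usual GT. Counted by distinct stop codons there were 10, with 2 each in Grm4, Grm5 and Grm8 and 1 in each of the others.

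Grm5 has the longest tail of the set. After the exon of the membrane-spanning part the model ENSMUST00000107263 has 886 coding bases in 1 exon, and its protein has 1171 residues. The model ENSMUST00000167164 adds an exon of 96 bases, or 32 residues, before it and has 1203 residues, with no change of reading frame after it. These are the forms known as a (without the exon) and b (with it). The cassette exon is shown because it is the only sequence that separates them, with capitals on the last 2 intron bases before and the first 2 after it.
Grm5 cassette exon with flanking splice sites (chr7:95264701-95264800, plus strand): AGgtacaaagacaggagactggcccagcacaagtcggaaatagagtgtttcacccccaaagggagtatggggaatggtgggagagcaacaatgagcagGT
The exon has the usual AG before it and GT after it. The introns on its sides are 41.1 kb and 13.7 kb long, and the intron that skips it is 54.9 kb long. The remaining coding model, ENSMUST00000061910, holds the cassette exon and lacks 541 bases of the last exon, ends at a stop codon of its own after 466 coding bases in 3 exons, and has no annotated start codon. The gap it takes out of the last exon begins with AG and ends with AG, and not with GT and AG as most introns do.

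In Grm8 the choice lies between donor sites 55 bases apart. The inner donor reads acaGTaagt and the outer one gatGTacgt, each given as 3 exon bases and 6 intron bases with the first intron bases in capitals. Splicing from the inner donor joins the penultimate exon of 247 bases to the last exon (ENSMUST00000090512). With the outer donor (ENSMUST00000115323) the penultimate exon has 302 bases and the frame reads through the inner donor, whose gtaagt opens the extended tail printed above, and stops inside the extension. Both forms have 47 coding bases after the common 247, and both proteins have 908 residues, so they differ in tail sequence and not in length. The forms correspond to those known as a (inner donor) and b (outer donor).

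Grm4 has a long form of 912 residues, in 2 models that differ outside the coding sequence, and a short form of 832 residues. The long form has 247 and 47 coding bases after the exon of 936 bases. The short form (ENSMUST00000088073) joins the exon of 936 bases over an intron of 11.8 kb to an exon of its own of 57 bases, 54 of them coding, that lies beyond the last exon of the long form. The exon of 247 bases, which Grm4, Grm7 and Grm8 have in common, is thus left out of the short form. The exon of 936 bases holds 6 of the 7 hydrophobic stretches of the long form. Whether the short form keeps the remaining stretch was not examined, so the forms may differ in more than the tail.

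Grm7 has a single tail in the deposited file, the form known as a, with 247 and 47 coding bases and a protein of 915 residues. The GENCODE M1 annotation has a further exon of 92 bases (chr6:111451504-111451595, plus strand), 5610 bases after the penultimate exon and 64416 bases before the last one, that no deposited model of Grm7 overlaps. Its coding part is shown because it ends the form known as b, which has 922 residues in GENCODE M1 and 68 coding bases in this exon.
Grm7 additional exon, coding part (chr6:111451504-111451574, plus strand): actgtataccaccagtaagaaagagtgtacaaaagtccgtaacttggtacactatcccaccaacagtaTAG
Reads from this exon have no exon of Grm7 to be assigned to in the deposited models. The identifier ENSMUST00000071076 stands for the form without the exon in the deposited file and for the form with it in GENCODE M1. For the other 21 models the exons were identical in both.

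Grm2, Grm3 and Grm6 have no alternative tail. Grm2 has 181 and 71 coding bases after the exon of the membrane-spanning part and 872 residues in all, and Grm3 has 175 and 71 coding bases and 879 residues. Grm6 has a single exon with 195 coding bases there and 871 residues. The coding sequence after that exon thus ranged from 54 bases in short Grm4 to 982 in Grm5 with the cassette exon. Grm7, both forms of Grm8 and the long form of Grm4 all had 294. These bases need not be tail alone. That exon held 7 of 7 hydrophobic stretches in Grm5, but 6 of 7 in Grm4 and, in the pair of exons, in Grm6. The values are therefore not tail lengths that can be compared between Grm5 and these receptors.

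**Figure D4:**
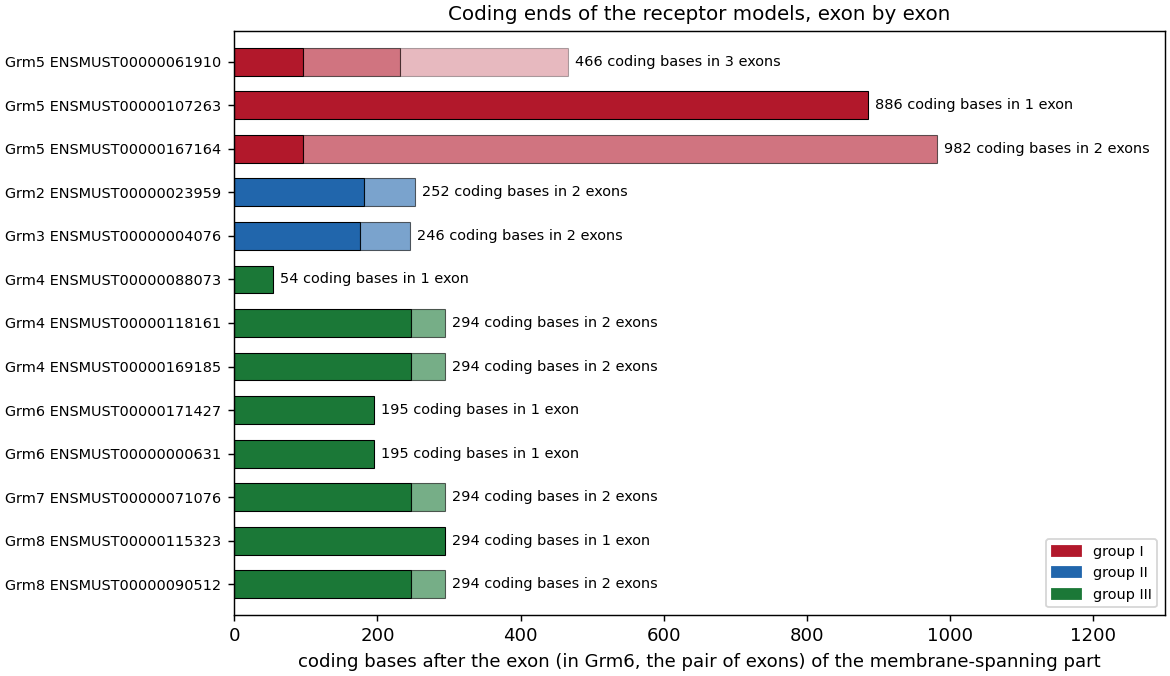
Coding bases after the exon of the membrane-spanning part (in Grm6, after the pair of exons) in the 13 coding models that reach a stop codon and start before that exon, drawn to scale with 1 box per exon and without introns. Long Grm4, Grm7 and both Grm8 forms end after 294 coding bases, short Grm4 after 54, and the Grm5 models after 466, 886 and 982. The bases drawn need not be tail alone, since that exon held 7 of 7 hydrophobic stretches in Grm5 but 6 of 7 in Grm4.

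The file sorts models with a common transcription start into TSS groups, of which the receptors had 18, 5 in Grm8, 3 each in Grm4, Grm5 and Grm6, 2 in Grm3 and 1 each in Grm2 and Grm7. Of these, 13 held a coding model, and 9 held a model with both a start and a stop codon. In Grm8 the start of the extended form lies 633 bases and that of the spliced form 8983 bases from the outermost 5′ end. The start of the spliced form lies inside exon 2 of the extended form (28075616 to 28076426), and its model has no exonic base of its own. The deposited models thus do not show that the tails of Grm8 go with different start sites. In Grm4 the long and short forms share 1 TSS group. In Grm5 the a and b forms share 1 as well. Grm6 has a pair of coding TSS groups 301 bases apart whose models have the same protein identifier.

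Several of these starts are not placed in an untranslated region. The Grm5 a and b models and the Grm7 model begin at the first base of their start codon and end at the last base of their stop codon, so they hold coding sequence only. The remaining coding model of Grm5 begins 102 bases upstream of them without a start codon. The second Grm3 model begins 212 kb downstream of the first, shortly before the exon of 1067 bases, with exons of 23 and 15 bases and without a start codon. Of the 16 coding models 12 had both codons, and 4 of those 12 had no base after the stop codon.

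The sequence around the starts differed among the receptors. In a window of 250 bases before and 50 after the start, the ratio of observed to expected CpG was 0.977 at the start shared by the Grm4 coding models, higher than at 90.9% of the 32150 TSS groups with a coding transcript that were examined. In Grm8 it was 0.541 at the start of the extended form and 0.524 and 0.345 at 2 other coding starts. It was 0.127 at the start of the spliced form, which lies inside exon 2 of the extended form. The outermost Grm8 start, which belongs to a model without a protein identifier, had 1.04. The median over the coding TSS groups was 0.510. Grm2 had 0.641 and the first Grm3 start 0.362. Grm7, whose model begins at its start codon, had 0.528. At the Grm5 starts, where the models begin in or at the coding sequence, it was 0 and 0.105, and at the Grm6 coding starts 0.218 and 0.278.

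In all, 67 of the 73 distinct receptor introns (91.8%) began with GT and ended with AG, against 230910 of 238517 (96.8%) over the whole file. The exceptions were 2 at the 5′ end of the second Grm3 model, 2 of 104 and 78 bases before the start codon in Grm4, the gap within the last exon of Grm5, and an intron of 65.4 kb in Grm8 that begins with GC and ends with AG.

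How far reads can tell the models apart depends on exonic bases and junctions that a model does not share, since Cufflinks divides reads among the transcripts of a gene. Of the 22 models 5 had no exonic base outside the other models of their gene, all of them coding, and 3 had neither a base nor an intron of their own. The Grm5 b form was among these 3, because all its parts recur in either the a form or the remaining coding model. The a form had no base but 1 junction of its own, the one that skips the cassette exon. The short Grm4 form had 57 bases and 1 junction of its own, and the extended Grm8 form had 793 bases and 2 junctions. Only 55 of these 793 bases are the extension that holds the alternative tail. The others lie in the first exon and in the untranslated end of the last exon. The 2 junctions are the one after the first exon, before the start codon, and the one from the outer donor. Of Grm8, the spliced form had no base and 1 junction of its own. Grm2 and Grm7 have a single model each, so that all reads assigned to either gene go to that model. The Grm7 model holds coding sequence only, so reads from outside it have no exon of Grm7 to be assigned to.

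GENCODE M1 holds 31 transcripts of these genes, of which 22 have an identifier in the deposited file and 9 do not. Of these 9, 1 of Grm7 has the intron chain of the deposited Grm7 model and 5, of Grm4, Grm5 and Grm8, have a chain contained in that of a deposited model. The remaining 3, all of Grm7, have chains that no deposited model contains.

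Set beside other glutamate receptor families in the same file, the metabotropic receptors had a median of 4 models per gene (1 to 5), against 3.5 in 4 AMPA receptor subunits (3 to 9), 2 in 5 kainate receptor subunits (1 to 7) and 3 in 7 NMDA receptor subunits (2 to 14). The median span was 240.1 kb for the metabotropic receptors, against 298 kb, 394 kb and 39.0 kb in the AMPA, kainate and NMDA subunits. More than 1 last intron among coding models was found in 3 of the 7 metabotropic receptors, 2 of 4 AMPA, 2 of 5 kainate and 5 of 7 NMDA subunits. Over all 22206 loci with a coding transcript the medians were 2 models, 1 TSS group and 1 last intron. The upper quartiles were 4 models, 3 TSS groups and 2 last introns. No test was made of the differences between families or from all coding loci. The related receptors Gabbr1 and Gabbr2, which form the GABA-B receptor, and Casr, the calcium-sensing receptor, had 2 models each.

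Among 17 listed partners of the receptors, 9 had more than 1 last intron among coding models, and the median number of models was 5 (1 to 16). Over all coding loci the upper quartile of last introns was 2 and the median number of models 2. Homer1, a scaffold of the Grm5 tail, had 13 coding models with 6 last introns, and Homer2 and Homer3 had 1 and 2 last introns. Pick1, whose PDZ domain binds the Grm7 tail, had 13 models with 2 last introns among the coding ones. Gnao1, the alpha subunit of Go, had 11 models with 5 last introns, while Gnai1, Gnai2 and Gnai3, alpha subunits of Gi, had 1 each. Gnaq and Gna11, the alpha subunits of Gq and its close relative, also had 1 each, and their target phospholipase genes Plcb1 and Plcb4 had 4 and 3.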

How the data were processed

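The authors deposited 1 file for the series, gene models in which columns 4 and 5 give exon starts and ends on mm9 and no count, RPKM or other expression value is present. Among tools, CASAVA, TopHat, Cufflinks and Cuffdiff are listed in the processing notes of the submitters, with no version, and the study's methods name Ensembl NCBIM37.62 as the reference. Depth per pool was therefore not examined, and no test between cocaine and saline was made. The 12 samples fall into 4 groups by their titles, of 3 pools each.

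Transcripts were taken by gene name. Coding models are those with a protein identifier, and a C-terminal variant is a distinct last intron among them. Start and stop codons were read from GENCODE M1 where its exons were identical to the deposited ones (21 of 22 models) and from the longest frame starting with ATG for Grm7, a rule that gave the GENCODE M1 frame in 11 of 11 complete models. Sequences came from the NCBIM37 genome. Proteins were aligned globally with BLOSUM62 and gap scores of 11 and 1. Hydrophobic stretches had a mean Kyte-Doolittle score of at least 1.6 over 19 residues. Named genes were the 7 members, the genes that overlap them, and listed families and partners. Members and lists were chosen with earlier results of these data known. Python 3.11.15, numpy 2.4.6, Biopython 1.88 and matplotlib 3.10.9 were used, and the summaries were tested on simulated gene models, with 20 of 20 tests passed.

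Alternatives changed the definition of a transcript, a coding transcript, a start site, a C-terminal variant and the span. Those limited to complete models or to GT-AG introns were chosen after seeing the data.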

Additional observations from a re-analysis of the deposited data

How the results depend on the processing

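Of 17 alternative settings, 16 gave a value within 1.5 times the one reported. The exception was the number of start sites, which was 18 by TSS groups and 9 when limited to complete coding models, a setting chosen after seeing the data. It counts fewer models by construction. By the other definitions there were 13 to 18 start sites, and 10 to 18 C-terminal variants against the 13 reported. The coding models numbered 12 to 22 against 16, and the models 22 to 31 against 22. The median span of group III was 475 kb under each definition. No paired analysis was possible because the deposited gene models hold no values per pool, so that leaving out single pools could not be tried either. The structures rest on the annotation used, and expression in NAc, read depth and use of the alternative tails could not be read from them.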

Other observations

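In the deposited file 3 other genes overlap a receptor gene, all on the opposite strand and all without a protein identifier. Gm12660, a processed transcript on chromosome 11 (50664834 to 50666084, minus strand), lies within Grm6 near its 5′ end and overlaps its exons, so that without strand the reads from these exons and from Gm12660 cannot be told apart. A small nuclear RNA gene, U7.17, lies on chromosome 7 (95235698 to 95235761, minus strand) in an intron of Grm5, and a small nucleolar RNA gene, SNORA17.414, on chromosome 6 (27618087 to 27618203, plus strand) in an intron of Grm8. Neither overlaps an exon of its receptor.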
